A study of Mus musculus with 12 samples.

Results

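The Arhgap and Arhgef genes encode regulators of small GTPases such as RhoA, Rac and Cdc42, and they were taken as every gene whose annotated symbol on the array starts with Arhgap or Arhgef. The rule gave 56 genes (34 Arhgap and 22 Arhgef) of 19087 named genes, and 110 array features of 41230 measured features. Of the 56 genes, 23 had 1 feature and 33 had several. The symbol Arhgap20os, an antisense transcript that encodes no regulator, entered through the rule and was called in neither experiment. The choice of genes used no measured value.

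These GTPases switch between an active form bound to GTP and an inactive form bound to GDP. Guanine nucleotide exchange factors (GEFs, here the Arhgef genes) load them with GTP, whereas GTPase-activating proteins (GAPs, here the Arhgap genes) speed up GTP hydrolysis and so switch them off. In oligodendrocytes, the glia that make central myelin, low RhoA activity accompanies the outgrowth of processes, and the kinase ROCK is an effector of RhoA that acts on myosin.

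Oli-neu, a mouse oligodendroglial line, here with a stably expressed PLP-EGFP fusion, was treated for 16 hours in 2 experiments. One used conditioned medium of neuronal cultures and the other the ROCK inhibitor Y27632 (dose not given in the sources used here), each against untreated parallel cultures. Each experiment had 6 Agilent two-colour mouse arrays, 3 with treated RNA in Cy3 and 3 with it in Cy5. The submitters call them technical replicates, and arrays of 1 experiment may not come from separate cultures. The fits held a dye term, so p-values measure the spread between arrays of the same dye orientation. The gap between the orientations enters the SD printed below but not the p-values. The sample labels speak of neuron treatment, end the compound number in 1, and the submitters' design text speaks of neurons present in the cultures, also in both arms of the inhibitor experiment. The groups are named here as in the methods of the study. Oli-neu is a single line, and the ratios hold no levels, so that the identity of the cells could not be checked.

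The values are log ratios that the authors standardized, so that each array has an SD of 1. They are given here in these SD units, turned to read treated over untreated, with ± SD over the 6 arrays. The log base is not stated, so an SD unit cannot be turned into a fold change, and a unit need not have the same size in both experiments. The direction rests on genes that the study lists as changed: all 42 of those measured, each read at its feature farthest from 0, had the listed sign in both experiments, which is not independent evidence. If the direction were wrong, higher and lower would exchange throughout. A feature was called when its limma adjusted p was under 0.05 and its mean at least 1 SD unit from 0. Arrays of the same dye orientation correlated across features at 0.859 to 0.890 with conditioned neuronal medium and at 0.731 to 0.809 with Y27632. Arrays of opposite orientation correlated at 0.249 to 0.296 and at -0.262 to -0.120. Values of each orientation are therefore given below for most called member features, though not for genes outside the family. In such bulk RNA, a change in the share of cells that express a gene and a change in RNA per cell cannot be told apart.

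In conditioned neuronal medium, 8 member features of 7 genes were higher and 4 features of 4 genes were lower. Arhgef11 and Arhgef12, RhoA exchange factors coupled to G proteins, Arhgap5, a GAP for RhoA, and Arhgef33, Arhgef17, Arhgap23 and Arhgap21 stood on the higher side. Arhgap6, Arhgef26, Arhgef2 and Arhgef6 stood on the lower side. The higher features were 7.27% of the members, beside 6.83% of all measured features. The lower features were 3.64%, beside 5.57%. Both shares of the members were thus near those of the whole array. With 1 sign on all 6 arrays required as well, 7 (6.36%) and 3 (2.73%) member features were left, beside 6.26% and 4.83% of all features. At 2 SD units, 0 of the members were called, whereas 2.12% of all features were.

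With Y27632, 10 member features of 8 genes were higher and 6 features of 6 genes were lower. Arhgap20 and Arhgap10 had the highest means, followed by Arhgef12, Arhgef11, Arhgap24, Arhgap23, Arhgef33 and Arhgap17. The lower features belonged to Arhgef2, Arhgap19, Arhgap15, Arhgap11a, Arhgap29 and Arhgap5. The higher features were 9.09% of the members, beside 3.94% of all features, and the lower ones 5.45%, beside 4.13%. With 1 sign on all 6 arrays, 9 (8.18%) and 3 (2.73%) were left, beside 3.19% and 3.31%. At 2 SD units, 2 member features were called (Arhgap20 and Arhgap10), and 0.91% of all features were. The higher members thus made up a greater share than on the whole array, which is a description of these counts and was not tested.

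**Figure D1:**
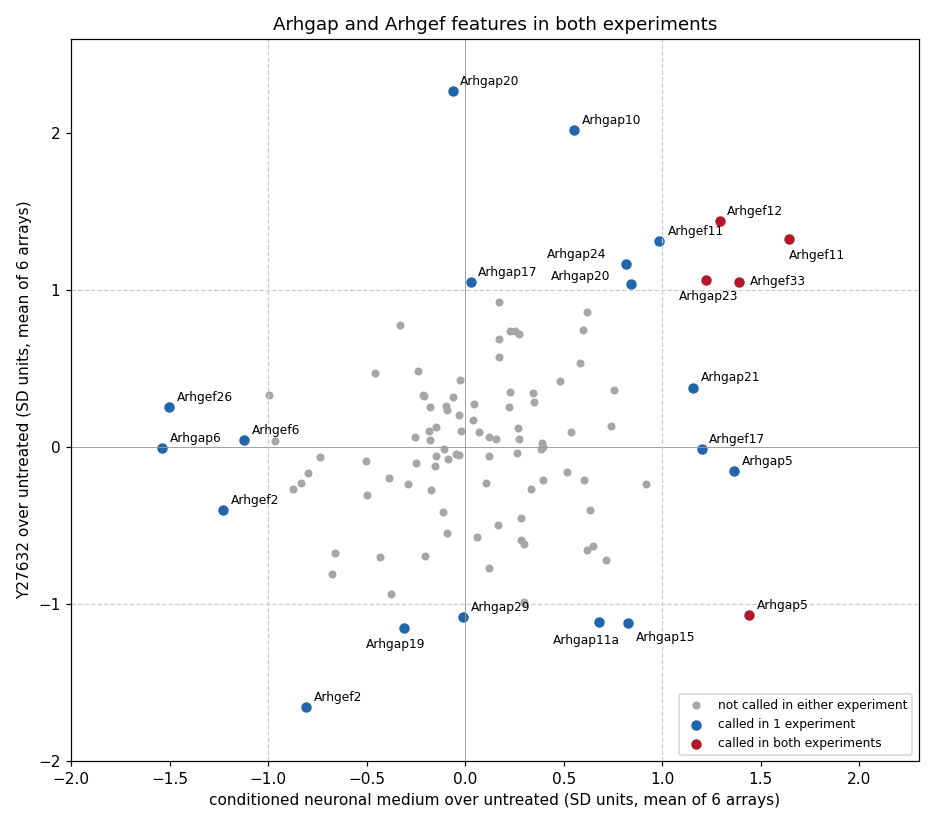
Mean of 6 arrays of each of the 110 member features, in SD units, with conditioned neuronal medium on the x axis and Y27632 on the y axis. Red points were called in both experiments (4 higher in both and 1, Arhgap5, higher in the medium and lower with Y27632), blue points in 1, and dashed lines mark the cut-off of 1 SD unit.

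Over all 110 member features, the median was 0.11 SD units in conditioned neuronal medium, beside -0.055 for the whole array, and 0.034 with Y27632, beside -0.011. Member means ran from -1.54 to 1.64 in the medium and from -1.66 to 2.27 with the inhibitor. Their SD was 0.61 in the medium, under the 0.77 of all features, and 0.65 with Y27632, above the 0.59 of all features. In all, 23 features of 19 genes were called in either experiment, and 37 genes had no called feature. The share of all features called in either experiment, or in both, was not counted. By its medians the whole family lay close to the centre of the array, with single members on both sides and, with Y27632, a wider spread than all features.

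Among the GEFs for RhoA, RhoB or RhoC (13 genes, 28 features), 3 features were higher (10.7%, beside 6.83% of all) and 1 lower (3.57%, beside 5.57%) in the medium. With Y27632, 3 were higher (10.7%, beside 3.94%) and 1 lower (3.57%, beside 4.13%). Arhgef11 was higher in both. Its feature 42043 read 1.29, 0.81 and 1.27 in conditioned neuronal medium with treated RNA in Cy3, and 2.24, 1.71 and 2.53 in Cy5 (1.64 ± 0.65, n = 6 arrays, limma adjusted p = 2.9e-06). With Y27632 it read 1.29, 0.15 and 0.62 in Cy3 and 2.07, 1.69 and 2.12 in Cy5 (1.32 ± 0.80, limma adjusted p = 0.00027). All 12 values were above 0, and those with treated RNA in Cy5 were the higher ones in both experiments. The other Arhgef11 feature, 39524, stood at 0.98 ± 0.23 in the medium, just under the cut-off, and was called at 1.31 ± 0.29 with Y27632. Arhgef11 was the only gene with several features of which every feature was called in 1 experiment, namely with Y27632.

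Arhgef12, the close relative of Arhgef11, was higher at 1 of its 4 features in each experiment. Feature 39013 read 0.42, 0.83 and 0.47 in Cy3 and 2.31, 1.80 and 1.91 in Cy5 in conditioned neuronal medium (1.29 ± 0.82, limma adjusted p = 4.3e-06). It read 0.89, 0.89 and 0.76 in Cy3 and 2.34, 1.08 and 2.69 in Cy5 with Y27632 (1.44 ± 0.84, limma adjusted p = 0.00056). As with Arhgef11, every array was above 0 and the Cy5 arrays were the higher ones. The other features of Arhgef12 were at 0.62, 0.17 and -0.83 in the medium and at -0.65, 0.57 and -0.23 with Y27632, and none of them was called, so the gene's features did not read alike.

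Arhgef2, a microtubule-bound exchange factor for RhoA, was lower, but at a different feature in each experiment. Feature 14955 read -1.91, -2.57 and -1.81 in Cy3 and -0.59, -0.27 and -0.23 in Cy5 in conditioned neuronal medium (-1.23 ± 0.99, limma adjusted p = 1.4e-05), and feature 37666 was at -0.81 ± 1.01 there. With Y27632, feature 37666 read -2.08, -2.03 and -2.21 in Cy3 and -1.51, -1.61 and -0.52 in Cy5 (-1.66 ± 0.62, limma adjusted p = 8.1e-05), whereas feature 14955 was at -0.40 ± 1.46. Each called feature was below 0 on all arrays of its experiment. The remaining features of Arhgef2 were at -0.97 and 0.06 in the medium and at 0.039 and -0.58 with the inhibitor. Arhgef17, another RhoA exchange factor, was called higher in the medium at feature 35909, with 2.11, 1.81 and 2.43 in Cy3 and 0.61, -0.26 and 0.50 in Cy5 (1.20 ± 1.07, limma adjusted p = 3.9e-05), so 1 array was below 0. With Y27632 it stood at -0.011 ± 0.89. Arhgef1, a further G protein coupled exchange factor for RhoA, was at -0.11 and -0.015 and was called in neither.

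Among the GEFs for Rac, Cdc42 or RhoG (5 genes, 9 features), 2 features were lower in the medium (22.2%, beside 5.57% of all), and none was called with Y27632. Arhgef26, an exchange factor for RhoG, read -2.04, -2.14 and -2.18 in Cy3 and -0.99, -0.74 and -0.92 in Cy5 in conditioned neuronal medium (-1.50 ± 0.68, limma adjusted p = 4e-07). With Y27632 it was at 0.25 ± 0.40. The arrays of both experiments did not overlap, and the difference was -1.76 ± 0.16 (SE, limma adjusted p = 1.2e-06). Arhgef6, a Rac and Cdc42 exchange factor that binds Pak kinases, was called lower at feature 1742 with values of opposite sign by dye. It read 0.35, 0.34 and 0.76 in Cy3 and -2.69, -2.87 and -2.62 in Cy5 (-1.12 ± 1.77, limma adjusted p = 5.6e-06). The call for Arhgef6 thus rested on the Cy5 arrays, and its other features stood at -0.18, -0.43 and 0.12. Its paralogue Arhgef7 was at 0.27 and 0.39 in the medium and at 0.72 and 0.0023 with Y27632, with neither feature called.

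**Figure D2:**
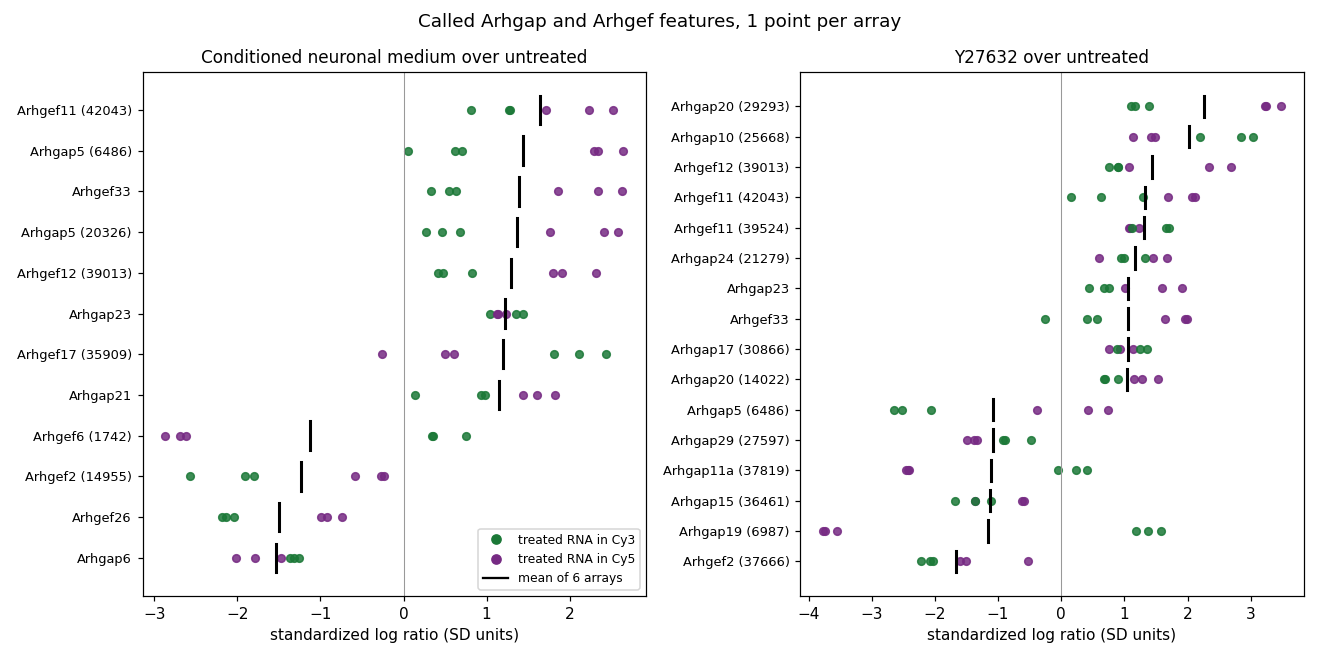
Standardized log ratio (SD units) of each called member feature on each of the 6 arrays of its experiment, coloured by the dye of the treated RNA, with the mean as a bar and feature numbers in parentheses where a gene has several. Arhgap23 and Arhgap6 in the medium lie on 1 side of 0 with a narrow spread, whereas Arhgef6 in the medium and Arhgap19 with Y27632 have opposite signs in the 2 dyes.

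Among the GAPs for RhoA (11 genes, 24 features), 2 features were higher (8.33%, beside 6.83% of all) and 1 lower (4.17%, beside 5.57%) in the medium. With Y27632, 1 was higher (4.17%, beside 3.94%) and 4 were lower (16.7%, beside 4.13%), of which the calls of Arhgap5, Arhgap19 and Arhgap11a were lost with no dye term. This class does not hold Arhgap20 (below), which was left unclassed and was called higher with Y27632, so the counts depend on where it is placed. Arhgap5 was the only member called in opposite directions. In conditioned neuronal medium its feature 6486 read 0.054, 0.62 and 0.71 in Cy3 and 2.29, 2.64 and 2.34 in Cy5 (1.44 ± 1.10, limma adjusted p = 3.2e-06), and feature 20326 was at 1.36 ± 1.02 (limma adjusted p = 8.9e-06). Both were above 0 on every array of that experiment. With Y27632, feature 6486 read -2.65, -2.06 and -2.51 in Cy3 but -0.39, 0.75 and 0.42 in Cy5 (-1.07 ± 1.52, limma adjusted p = 0.001), and feature 20326 was at -0.15 ± 1.70. The lower call with Y27632 rested on the Cy3 arrays, and without replicate 1 it was lost at -0.91. The difference between the experiments at feature 6486 was 2.52 ± 0.20 (SE, limma adjusted p = 4.8e-07). The third Arhgap5 feature stood at 0.51 and -0.16. Arhgap35, the paralogue of Arhgap5 and likewise a GAP for RhoA, was at 0.23 and 0.35 and was not called.

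Arhgap6, a RhoA GAP tied to actin remodelling, had the lowest mean of all members in the medium and 1 of the narrowest spreads among the called ones. It read -1.26, -1.37 and -1.32 in Cy3 and -2.01, -1.48 and -1.79 in Cy5 (-1.54 ± 0.30, limma adjusted p = 7.7e-07). With Y27632 it was at -0.0097 ± 0.46, and the difference was -1.53 ± 0.18 (SE, limma adjusted p = 1.2e-05). Every medium array of Arhgap6 was thus below every Y27632 array. Arhgap10, a GAP of the GRAF family, was higher with Y27632 at feature 25668, with 2.84, 3.03 and 2.20 in Cy3 and 1.49, 1.42 and 1.14 in Cy5 (2.02 ± 0.79, limma adjusted p = 1.7e-05). In the medium that feature was at 0.55 ± 0.74, and the difference was -1.47 ± 0.18 (SE, limma adjusted p = 2.4e-05). The other feature of Arhgap10 was at -0.81 with Y27632 and at -0.68 in the medium, on the opposite side of 0 from the called one in both experiments.

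The other RhoA GAPs that were called were lower with Y27632. Arhgap29 read -0.48, -0.89 and -0.93 in Cy3 and -1.39, -1.33 and -1.50 in Cy5 at feature 27597 (-1.09 ± 0.39, limma adjusted p = 0.00012), below 0 throughout. Its other feature was at 0.69, on the other side of 0. Arhgap11a, which acts on RhoA in dividing cells, read 0.41, 0.23 and -0.054 in Cy3 and -2.41, -2.43 and -2.46 in Cy5 at feature 37819 (-1.12 ± 1.45, limma adjusted p = 9.2e-05). Arhgap19, also known from cell division, read 1.18, 1.38 and 1.58 in Cy3 and -3.77, -3.74 and -3.55 in Cy5 at feature 6987 (-1.15 ± 2.78, limma adjusted p = 7.6e-05). Both thus lay far below 0 with treated RNA in Cy5 but around or above it in Cy3. Further features of these genes were at -0.77 for Arhgap11a and at 0.17 and -0.99 for Arhgap19, all with adjusted p or mean short of a call.

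In the class of GAPs for Rac or Cdc42 (13 genes, 24 features), which does not hold Arhgap21 (below), 0 features were called in the medium, where means ran from -0.88 to 0.83. With Y27632, 2 were higher (8.33%, beside 3.94% of all) and 1 was lower (4.17%, beside 4.13%). Arhgap24, a filamin-binding Rac GAP, read 0.95, 1.33 and 0.99 in Cy3 and 1.67, 1.45 and 0.60 in Cy5 at feature 21279 (1.16 ± 0.39, limma adjusted p = 0.0005). In the medium this feature was at 0.82 ± 0.42, under the cut-off, and the other features of Arhgap24 lay between -0.054 and 0.42 in both experiments. Arhgap17, a GAP for Cdc42 and Rac found at cell junctions, read 1.35, 0.88 and 1.24 in Cy3 and 0.76, 0.93 and 1.13 in Cy5 at feature 30866 (1.05 ± 0.23, limma adjusted p = 0.00018). It stood at 0.027 ± 0.42 in the medium, and the difference was -1.02 ± 0.14 (SE, limma adjusted p = 4.1e-05). Arhgap17 thus had the narrowest spread of the members called with Y27632, with its mean just past the cut-off.

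Arhgap15, a Rac GAP, was lower with Y27632 at feature 36461, with -1.68, -1.37 and -1.11 in Cy3 and -0.63, -0.59 and -1.36 in Cy5 (-1.12 ± 0.44, limma adjusted p = 0.00038). In conditioned neuronal medium the same feature read 0.23, -0.12 and -0.24 in Cy3 and 1.47, 1.42 and 2.21 in Cy5 (0.83 ± 1.01), so the arrays of the experiments did not overlap. The difference was 1.95 ± 0.19 (SE, limma adjusted p = 3.1e-06), and it was 1.03 ± 0.24 at the other feature of Arhgap15 (limma adjusted p = 0.0029). Arhgap32, a GAP best known from neurons, was at 0.27 and -0.22 in the medium and at 0.12 and 0.33 with Y27632.

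**Figure D3:**
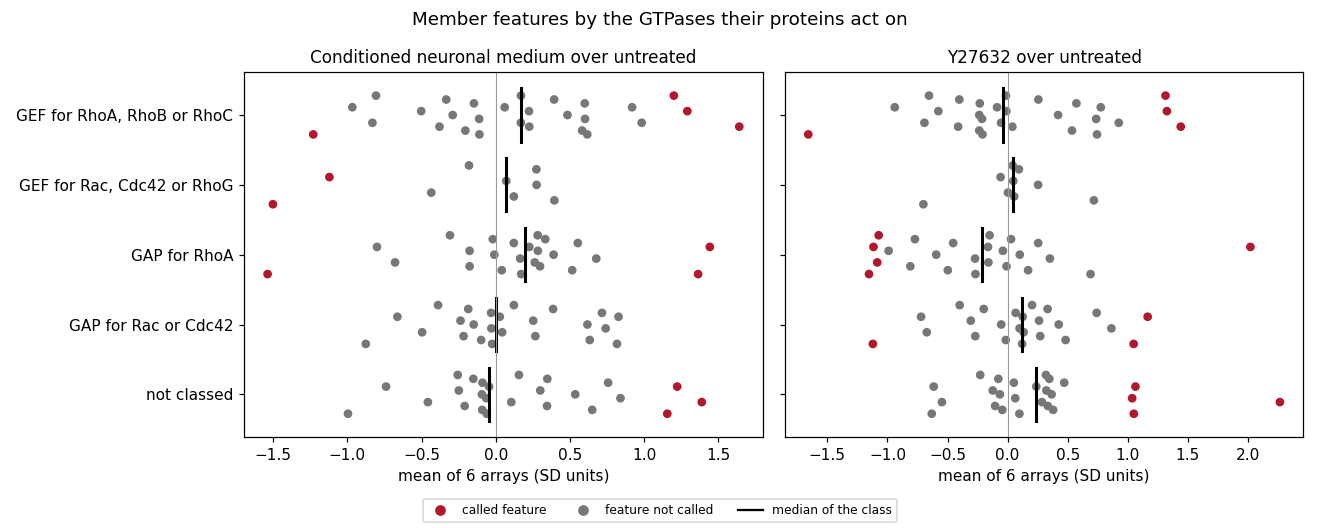
Mean of 6 arrays (SD units) of each member feature, by the GTPases on which the protein acts, in the medium and with Y27632, with called features in red and the median of each class as a bar. The medians run from -0.045 to 0.20 in the medium and from -0.22 to 0.24 with Y27632, and 4 of the 5 features called for the RhoA GAPs with Y27632 lie below 0, of which 3 were not called without the dye term. Arhgap20, called higher with Y27632, is shown among the genes not classed.

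The class counts above leave out the last 14 genes (25 features), which were not classed by their GTPase. They held 3 higher features in the medium (12%, beside 6.83% of all) and 4 with Y27632 (16%, beside 3.94%), with none lower. Arhgap20, a GAP that is regulated by Rap, had the highest mean of all members with Y27632. Its feature 29293 read 1.10, 1.40 and 1.16 in Cy3 and 3.24, 3.47 and 3.22 in Cy5 (2.27 ± 1.15, limma adjusted p = 4.3e-06). In the medium it read -0.88, -1.04 and -1.06 in Cy3 and 0.94, 0.97 and 0.69 in Cy5 (-0.064 ± 1.03), and the difference was -2.33 ± 0.12 (SE, limma adjusted p = 8.9e-09). Every Y27632 array of this feature was thus above every array of the medium. A further Arhgap20 feature, 14022, was called at 1.04 ± 0.34 with Y27632 and stood at 0.84 ± 0.34 in the medium. The features left were at 0.063 and 0.37 with Y27632.

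Arhgap23 and Arhgef33, each with 1 feature, were higher in both experiments. Arhgap23 read 1.04, 1.44 and 1.36 in Cy3 and 1.24, 1.13 and 1.13 in Cy5 in the medium (1.22 ± 0.15, limma adjusted p = 2.3e-06). With Y27632 it read 0.67, 0.44 and 0.76 in Cy3 and 1.60, 1.00 and 1.91 in Cy5 (1.06 ± 0.57, limma adjusted p = 0.00043). In the medium Arhgap23 thus had the smallest SD of any called member, with the dyes overlapping. Arhgef33 read 0.33, 0.63 and 0.54 in Cy3 and 1.86, 2.34 and 2.63 in Cy5 in the medium (1.39 ± 1.01, limma adjusted p = 4.7e-06). With Y27632 it read 0.56, 0.41 and -0.26 in Cy3 and 1.65, 1.99 and 1.96 in Cy5 (1.05 ± 0.94, limma adjusted p = 0.00043). It was above 0 on all arrays but 1, and its call with Y27632 was lost with no dye term. Arhgap21, a Golgi-associated GAP that acts on Cdc42 but was left unclassed here, was higher in the medium, with 0.94, 0.98 and 0.14 in Cy3 and 1.44, 1.83 and 1.61 in Cy5 (1.16 ± 0.61, limma adjusted p = 3.2e-05), and stood at 0.38 ± 0.49 with Y27632. Leaving out 1 array ended the Y27632 calls of Arhgap23 (0.96 without replicate 3), Arhgef33 (0.97 without replicate 4) and Arhgap20 feature 14022 (0.98 without replicate 3), as it did those of Arhgap15 (-0.996 without replicate 3) and Arhgap17 (0.999 without replicate 4), all by the cut-off on the mean.

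Of the genes higher in both experiments, Arhgef11, Arhgef12 and Arhgef33 had a promoter in the RefSeq table used here (GRCm38.p6), as did 41 of the 56 member genes. Their sequences are shown because these members were called higher in both experiments. The windows cover 250 bases upstream of the annotated start, for Arhgef11 at chr3:87617309-87617558 (plus strand), for Arhgef12 at chr9:43105719-43105968 (minus strand) and for Arhgef33 at chr17:80307157-80307406 (plus strand), each written 5′ to 3′ along the gene. Capitals mark matches to the GC box GGGCGG on either strand, with overlapping matches counted apart.
Arhgef11: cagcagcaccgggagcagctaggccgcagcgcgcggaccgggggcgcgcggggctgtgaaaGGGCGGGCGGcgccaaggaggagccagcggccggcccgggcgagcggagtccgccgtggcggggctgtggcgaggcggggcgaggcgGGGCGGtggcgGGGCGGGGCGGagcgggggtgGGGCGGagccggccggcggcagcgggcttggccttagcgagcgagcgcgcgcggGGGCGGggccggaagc
Arhgef12: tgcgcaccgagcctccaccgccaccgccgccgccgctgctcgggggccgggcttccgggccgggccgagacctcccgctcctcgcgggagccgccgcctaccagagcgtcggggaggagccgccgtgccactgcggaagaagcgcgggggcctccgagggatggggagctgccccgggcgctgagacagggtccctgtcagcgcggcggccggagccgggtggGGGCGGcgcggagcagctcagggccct
Arhgef33: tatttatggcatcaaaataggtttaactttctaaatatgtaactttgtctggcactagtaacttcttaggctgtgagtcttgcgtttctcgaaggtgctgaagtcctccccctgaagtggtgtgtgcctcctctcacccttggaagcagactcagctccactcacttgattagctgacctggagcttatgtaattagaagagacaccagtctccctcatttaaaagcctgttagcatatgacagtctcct
Arhgef11 held 7 matches and a GC share of 83.6%, Arhgef12 held 1 match and 79.6%, and Arhgef33 held none and 44%. Of all 32851 windows of this length, 32.7% held a match, and the median GC share was 52.4%. Counted as CG pairs, the windows of Arhgef11, Arhgef12 and Arhgef33 held 42, 35 and 2, beside a median of 6. The windows of Arhgef11 and Arhgef12 thus lay above both medians, whereas that of Arhgef33 lay below them. A match is a run of letters and no measured site.

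The difference between the experiments was called at 12 member features that were higher in conditioned neuronal medium (10.9%, beside 8.94% of all features) and at 9 that were lower (8.18%, beside 8.11%). The widest were Arhgap5 and Arhgap15 on the higher side and Arhgap20 and Arhgef26 on the lower side, with the values given above. Among the features that were called in neither experiment, a difference was called for Arhgap33 feature 4575 (1.44 ± 0.16), Arhgap19 feature 38257 (1.29 ± 0.11), Arhgap12 feature 40862 (1.28 ± 0.19), Arhgef15 feature 11649 (1.15 ± 0.23), Arhgap4 (-1.33 ± 0.14), Arhgef18 feature 24303 (-1.11 ± 0.12), Arhgef12 feature 9904 (1.27 ± 0.14), Arhgap15 feature 11044 (1.03 ± 0.24) and Arhgef2 feature 11390 (-1.01 ± 0.21), each with SE. These names were chosen after their values were seen. No difference was called at the other features of Arhgap33 (0.40), Arhgap12 (0.062, -0.53 and -0.33), Arhgef15 (-0.092) and Arhgef18 (-0.032). The same held for the other features of Arhgap19 (0.84 and -0.13), Arhgef2 (-0.83, 0.64 and 0.85) and Arhgef12 (-0.40, -0.15 and -0.60). Arhgap12 feature 40862 and Arhgef15 feature 11649 had means of opposite sign in the dye orientations in both experiments. With no dye term, 8 of the 21 called differences were lost, those of Arhgef6, Arhgap33, Arhgap4, Arhgef15, Arhgap5 feature 20326, Arhgef17, Arhgap19 and Arhgap12. The sources do not state whether the untreated cultures were shared. The 4 features higher in both, 1 each of Arhgap23, Arhgef11, Arhgef12 and Arhgef33, are therefore given as values of each experiment and not as a result of their own.

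Features of the same gene often read differently. In the medium 6 genes with several features had a called one, for 5 of them at a single feature, and for none at all features. With Y27632 this held for 12 genes, of which 10 were called at 1 feature and 1, Arhgef11, at all. The range between the features of a gene had a median of 0.61 in the medium and 0.71 with Y27632, and reached 2.12 (Arhgef12) and 2.83 (Arhgap10). Of the member features, 80 are annotated to a RefSeq mRNA, 27 to a RIKEN cDNA clone and 3 to other cDNAs, and their positions within the transcripts were not used here. With the mean of a gene's features in place of single features, 5 genes were higher and 2 lower in the medium, and 3 higher and none lower with Y27632. The share of all genes called on such means was not counted, so these counts do not set the members apart from other genes. The genes called on their mean were Arhgap21, Arhgap23, Arhgap5, Arhgap6, Arhgef11, Arhgef26 and Arhgef33 in the medium, and Arhgap23, Arhgef11 and Arhgef33 with Y27632, of which Arhgap5 and Arhgef11 have several features.

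**Figure D4:**
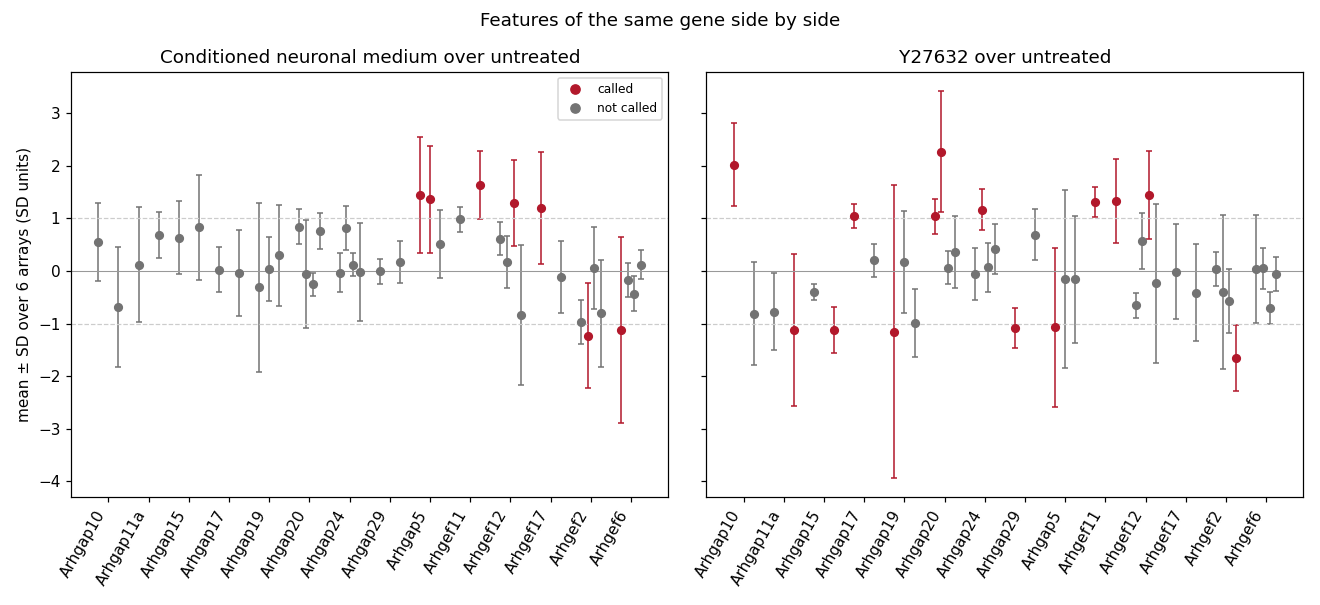
Mean ± SD over 6 arrays (SD units) of every feature of the member genes that have several features and at least 1 call, in the medium and with Y27632, with called features in red and dashed lines at the cut-off. The features of Arhgef11 lie close together with Y27632 (1.31 and 1.32) but less so in the medium (0.98 and 1.64). Those of Arhgap10 and Arhgap20 with Y27632 and of Arhgef12 in the medium lie apart.

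The other parts of the pathway are given for comparison. Of 22 GTPases of the RhoA, Rac and Cdc42 family measured, 2 genes had a higher and 6 a lower feature in the medium (7.5% and 17.5% of 40 features, beside 6.83% and 5.57% of all), and 1 a higher and 5 a lower feature with Y27632 (2.5% and 20% of features, beside 3.94% and 4.13%). These array-wide shares stand beside the lists that follow as well. Rnd3, an atypical GTPase that opposes RhoA, was lower in both (-1.72 ± 0.20 and -1.45 ± 0.93, then -2.35 ± 0.50 and -1.94 ± 0.62, with 1 further feature at -0.25 and 0.67), as was Rhob (-2.13 ± 1.06 and -1.14 ± 0.96). The features of Rhoa itself were at 0.14 and -0.23 in the medium and at -0.33 and -0.26 with Y27632, and none was called. Of the RhoGAPs under other names (25 genes), 4 had a higher and 1 a lower feature in the medium (11.5% and 1.92% of features) and 3 and 2 with Y27632 (7.69% and 3.85%), led by Chn2, a Rac GAP (6.63 ± 0.33 and 6.20 ± 0.88 in the medium, 2.03 ± 0.77 and 2.04 ± 0.54 with Y27632). Of the RhoGEFs under other names (46 genes), 9 had a higher and 4 a lower feature in the medium (10.3% and 4.31% of features) and 8 and 3 with Y27632 (8.62% and 2.59%). They were led by Dock4, a Rac exchange factor, in the medium (3.02 ± 0.55) and by Ect2, an exchange factor of cytokinesis, on the lower side with Y27632 (-2.59 ± 1.75). Of the 47 effectors of these GTPases, 8 had a higher and 8 a lower feature in the medium (14.7% and 8.42% of features) and 2 and 2 with Y27632 (2.11% and 2.11%), and Arhgdib, the 1 GDP dissociation inhibitor measured, was at 0.18 and 0.23. None of the Arhgap and Arhgef members came near the means of Chn2 in the medium.

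Markers of other cells that a neuronal medium or the line could carry were read in the same arrays. Oligodendrocyte lineage markers had 5 of 7 genes with a higher and 1 with a lower feature in each experiment (50% and 14.3% of features in the medium, 42.9% and 7.14% with Y27632). Neuron markers had 3 higher and 1 lower of 10 genes in the medium (13.6% and 4.55% of features) and 1 and 3 with Y27632 (4.55% and 18.2%). Astrocyte markers had 2 and 2 of 6 genes (12.5% and 25% of features), then 3 and 0 (25% and 0%). None of 4 microglia genes was called. Ratios do not show which of these markers are at 0, and the part of other cells in the member values was not tested.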

How the data were processed

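The deposited values are scores that the authors made from 12 two-colour Agilent mouse arrays: log ratios of the channels, brought to an SD of 1, with loess normalization and with saturated features taken from a scan at lower gain. The RNA had been amplified by PCR before labelling. Depth does not apply to arrays, whose number limits the precision. Signs were turned to treated over untreated. Gene names came from the platform annotation, updated through RefSeq, and all 110 annotated member features had values. The 3060 features that were empty on every array were left out.

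Fits used R 4.3.3 and limma 3.58.1. The model of an experiment held an intercept and a dye term, over 41230 features, with Benjamini-Hochberg adjustment, and the difference was fitted on all 12 arrays with a dye term for each experiment. Scripts were tested on simulated data. The plan had taken the values for plain log ratios, so cut-offs are in SD units. The members, gene lists and classes were chosen with earlier results of these data known. Named are the called features with the largest means (at most 8 per experiment and direction), members called in opposite directions, a fixed set of RhoA regulators with Arhgap32 and Arhgef7, and up to 4 called genes per further list, of which only some are printed. Arhgap17 and Arhgap20 feature 14022, both called higher with Y27632, fall outside the limit of 8 and are named as well. Alternatives covered the dye term, cut-off, centring, scaling, variance model, dye orientation, single arrays left out and the mean of a gene's features.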

Additional observations from a re-analysis of the deposited data

Results flagged for a closer look

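Differences between the experiments (conditioned neuronal medium minus Y27632, SD units, limma on 12 arrays) passed the test at features of genes named above. They were 2.52 and 1.51 for Arhgap5 (features 6486 and 20326), 1.95 for Arhgap15, 1.79 for Arhgap11a, 1.27 for Arhgef12 feature 9904, 1.21 for Arhgef17 and 1.08 for Arhgap29. On the other side they were -2.33 for Arhgap20, -1.76 for Arhgef26, -1.53 for Arhgap6, -1.47 for Arhgap10, -1.16 for Arhgef6, -1.02 for Arhgap17 and -1.01 for Arhgef2 feature 11390. With no dye term those of Arhgap5 feature 20326, Arhgef17 and Arhgef6 were lost. Those of Arhgap17 and Arhgef2 lay close to the cut-off, and single arrays left out ended both. Each value is that of a single feature and not of the gene. Differences of opposite sign occurred at other features of Arhgap29, Arhgap20, Arhgap10, Arhgef12, Arhgef6 and Arhgef2. The other features of Arhgap5, Arhgap15, Arhgap11a, Arhgap17 and Arhgef17 kept the sign.

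Single arrays stood apart by Dixon's criterion in 4 sets of 6 arrays. These were the highest Y27632 array of Arhgap21 (1.29), of Arhgef2 feature 11390 (0.69) and of Arhgef7 feature 27458 (0.61), and the lowest medium array of Arhgef7 feature 27458 (-0.47). Chance alone gives such an array in about 1 of 20 sets of like arrays. The criterion was read in both experiments at every called feature and at the fixed set of regulators, so some such arrays are due by chance. Each set also mixes the dye orientations, for which this rate need not hold.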

How the results depend on the processing

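Calls depended mainly on the cut-off and the dye. On adjusted p alone, 40 member features were higher and 21 lower in the medium, 25 and 24 with Y27632, and 26 and 21 in the difference. At 2 SD units these counts were 0 and 0, 2 and 0, and 1 and 1. With no dye term, 3 features were lower with Y27632 and 6 higher in the difference. With treated RNA in Cy3 only, 7 were lower in the medium and 14 with Y27632. With treated RNA in Cy5 only, 20 were higher and 10 lower in the medium, and 16 and 14 with Y27632. Shares over all features were not counted on adjusted p alone, without the dye term or in a single dye orientation. Nor were shares over all genes counted for the mean of a gene's features (below). The counts under these settings thus show how the calls move and do not set the members apart from the whole array. A rule added after seeing the data, 1 sign on all 6 arrays, left 3 lower with Y27632. With the mean of a gene's features, the genes lower in the medium went from 4 to 2, and those higher and lower with Y27632 from 8 to 3 and from 6 to 0. The sign turned in Cy3 only for Arhgef6 in the medium (0.48) and for Arhgap19 (1.38) and Arhgap11a (0.20) with Y27632, and in Cy5 only for Arhgap5 feature 6486 with Y27632 (0.26). The calls of these 4 features also ended without the dye term, as did that of Arhgef33 with Y27632 and 8 of the 21 differences, named above.

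With 1 array left out, 8 to 9 features were higher and 4 to 6 lower in the medium, 8 to 11 and 6 to 7 with Y27632, and 11 to 13 and 7 to 10 in the difference. The difference of Arhgap17 was lost without replicate 3 or 4 of either group, and those of Arhgef2 feature 11390 (-0.87), Arhgap15 feature 11044 (0.87) and Arhgef15 (0.98) were lost with some arrays left out. Scaling by the median absolute deviation ended the call of Arhgef6 (-0.94) and the difference of Arhgap15 feature 11044 (0.99). Centring ended the difference of Arhgef2 feature 11390 (-0.99), whereas ordinary least squares and a trended robust variance ended no difference. With the replicate block the difference had 12 and 9 features, and all 21 were shared with the fit without it. Arrays of the same number deviated with r of -0.638 to -0.580, and of -0.0483 to 0.0841 once dye was removed, so the numbers were not taken to pair the arrays. The arrays hold no depth, and signal over background was not used here.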
